A study of Mus musculus with 9 samples.

Results

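The genes described here are 9 pericentral hepatocyte genes and targets of Wnt/beta-catenin signalling outside the cytochrome P450 family: Glul, Slc1a2, Oat, Rgn, Tbx3, Axin2, Rnf43, Znrf3 and Lgr5. They were taken by gene symbol, and all 9 were found among 23440 genes with a single row per symbol. Of the 9, 7 reached 1 TPM (TPM is a transcript abundance corrected for transcript length and library size) in at least 3 libraries and were among the 10161 genes tested, while Lgr5 and Znrf3 did not reach that level. Livers of C57Bl6 mice were measured by bulk RNA sequencing in 9 libraries, 3 from young untreated mice of 2 months, 3 from aged untreated mice of 20 to 22 months, and 3 from mice of 20 to 22 months that ate chow with PD-0332991 for 2 weeks. The untreated groups ate standard chow, and the labels give the drug content as 450 with the unit written mg/k. PD-0332991, also called palbociclib, inhibits the cell cycle kinases CDK4 and CDK6, which the title of the series ties to fat accumulation in the ageing liver. Sex is not in the labels, nor is it said that replicates of a group are separate animals, so a p-value here reflects library-to-library spread that may be technical.

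Hepatocytes differ in their work along the path of blood from the portal vein to the central vein. Endothelial cells around the central vein release Wnt ligands and R-spondins, beta-catenin is then stabilised in the neighbouring hepatocytes, and together with TCF factors it switches on genes of the pericentral program. Some of these targets make or use glutamine, glutamate and ornithine. Others act on the pathway itself: Axin2 rebuilds the complex that degrades beta-catenin, Rnf43 and Znrf3 remove Wnt receptors from the cell surface, and Lgr5 binds R-spondins and so protects those receptors.

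Per library the rows held 53.1% to 57.7% of the total that TPM has by definition, and the depth is unknown because TPM does not keep it. No pair of the 9 libraries held identical values. The hepatocyte genes Ttr (5196 to 8150 TPM) and Apoa1 (8989 to 12869 TPM) were high in all 9 libraries, while Alb, the albumin gene, was listed at 0 in all of them. In tissue extracts of this kind, fewer cells of a type and less RNA per cell cannot be told apart.

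Promoter sequences are shown for Slc1a2 and Oat, the 2 genes that passed the test in at least 1 comparison. Glul, the classical pericentral marker, is shown as well, although it passed in none. RefSeq windows of 300 bases, 250 before to 50 after a start site (GRCm38.p6, the same assembly as the mm10 build of the deposited tables), were at hand for 5 of the 9 genes, in 6 windows: Glul, Slc1a2, Oat, Axin2 and, with 2 start sites, Rnf43. There was no entry for Tbx3, Lgr5, Znrf3 and Rgn. Each window was searched on both strands for the TCF/LEF letters CTTTGAA, or the same with its last bases AT, TA or TT, and for the HNF4A letters CAAAGTCCA, whose reverse strand holds CTTTG and can overlap the former. The 250 bases before the start site follow, 5′ to 3′ on the strand of the gene, with a match in capitals.
Slc1a2 (chr2:102706188-102706437, plus strand): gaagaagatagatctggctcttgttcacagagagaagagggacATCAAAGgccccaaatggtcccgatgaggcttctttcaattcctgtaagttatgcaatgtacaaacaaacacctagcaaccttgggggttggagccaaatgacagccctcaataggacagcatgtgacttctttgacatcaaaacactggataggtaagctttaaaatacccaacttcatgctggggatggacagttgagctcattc
Oat (chr7:132576399-132576648, minus strand): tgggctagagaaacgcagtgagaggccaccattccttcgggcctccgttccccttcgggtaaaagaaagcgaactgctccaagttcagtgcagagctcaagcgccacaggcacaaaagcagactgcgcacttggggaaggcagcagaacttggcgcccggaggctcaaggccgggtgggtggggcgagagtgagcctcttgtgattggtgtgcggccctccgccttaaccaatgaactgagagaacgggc
Glul (chr1:153899679-153899928, plus strand): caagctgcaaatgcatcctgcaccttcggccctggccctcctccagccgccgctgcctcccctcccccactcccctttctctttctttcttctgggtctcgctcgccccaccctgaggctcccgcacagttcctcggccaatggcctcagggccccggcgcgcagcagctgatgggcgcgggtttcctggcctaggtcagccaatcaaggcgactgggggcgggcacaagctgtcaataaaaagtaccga

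The Slc1a2 window held 1 TCF/LEF match, ATCAAAG, the reverse strand of CTTTGAT, whose leftmost base lies at position -207 from the start site. The other 5 windows held none, and none of the 6 held the HNF4A letters. Of all 32851 RefSeq windows, 16.9% held a TCF/LEF match and 0.475% an HNF4A match, so 1 window in 6 is close to the share among all windows. The Slc1a2 start site lies inside the gene, 48199 bases downstream of its outermost RefSeq start, and 2 GENCODE transcripts begin within 50 bases of it. The Oat and Glul start sites are the outermost RefSeq starts of their genes. The Oat window also overlaps the span of Fgfr2, and the Glul window those of Mir8114 and Teddm2.

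The fitted differences of the 7 tested genes did not all have the same sign, but the only called ones, of Slc1a2 and Oat, were all higher. With age 6 of the 7 tested genes had a log2 fold change above 0 and 1 below. With the drug 3 lay above 0 and 4 below, and the same counts held in treated against young livers. The median log2 fold change over all genes tested was -0.012 with age, -0.090 with the drug and -0.097 in treated against young livers. Apart from the ratios given below, differences between genes were not tested. Slc1a2 and Oat were higher in aged livers given PD-0332991 than in young livers, at 1.73 and 1.91 times the young level, and Slc1a2 was already 1.66 times higher in aged untreated livers. Glul lay above the young range in all aged untreated libraries and back within or below it in the treated ones, with differences that did not pass the test. Rgn, Tbx3, Axin2 and Rnf43 passed in no comparison. Lgr5, at low level and not among the genes tested, was below all untreated libraries in all treated ones. Among the genes tested, 22.4% did not overlap with the drug and 33.9% in treated against young livers. The share that lay apart from both untreated groups was not counted. Fold changes were fitted on log2(TPM + 0.5), a scale that makes the changes of low genes look smaller, and a gene was called when its Benjamini-Hochberg adjusted p in limma, over all genes tested, was under 0.05.

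**Figure D1:**
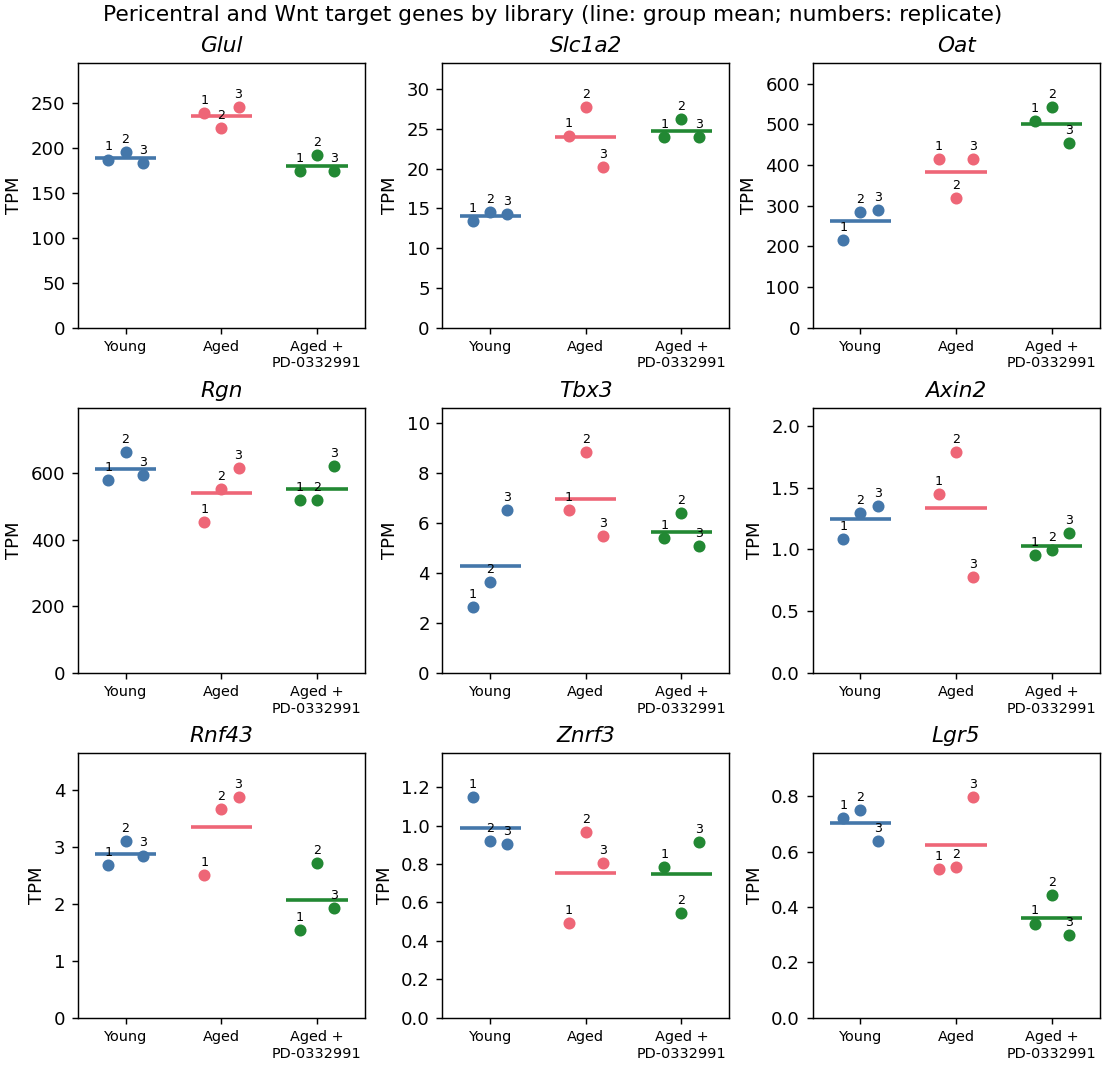
TPM of the 9 genes in each of the 9 libraries, in 1 panel per gene with its own axis from 0; points are libraries with their replicate number, and lines are group means. Slc1a2 and Oat lie higher in the aged and treated libraries than in the young ones, Glul is highest in the aged untreated libraries (221 to 245 TPM), and Lgr5 is lowest in the treated libraries (0.300 to 0.443 TPM).

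Slc1a2 (chr2:102658239-102790784) encodes the glutamate transporter GLT-1, which takes up glutamate that pericentral cells can turn into glutamine. It read 13.5, 14.5 and 14.3 TPM in young replicates 1, 2 and 3. In aged untreated replicates 1, 2 and 3 it read 24.1, 27.7 and 20.2 TPM, and in treated replicates 24.0, 26.2 and 24.0 TPM. All 6 libraries of old mice lay above all 3 young ones, and the treated libraries lay within the range of the aged untreated ones. Its mean rose from 14.1 ± 0.569 to 24.0 ± 3.78 TPM with age (± is the SD over n = 3 libraries, and the SE for log2 fold changes). On the log2 scale the rise was 0.74 ± 0.12 (limma adjusted p = 0.0162). That call was lost without young replicate 1 (limma adjusted p = 0.0866), 2 (0.0571) or 3 (0.0527), without aged replicate 1 (0.0652), and with the 6 libraries of the comparison alone (0.0562). The rise against young livers also stood in treated livers, at 24.7 ± 1.28 TPM (log2 difference 0.79 ± 0.12, limma adjusted p = 0.0052), and there it was called under all 18 alternatives. Between treated and aged untreated livers the log2 fold change was 0.053, with an unadjusted 95% interval from -0.21 to 0.31 (limma adjusted p = 0.854).

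Oat (chr7:132557475-132576398) encodes ornithine aminotransferase, the mitochondrial enzyme that turns ornithine into an intermediate of glutamate and proline. Young replicates 1, 2 and 3 read 215, 285 and 289 TPM. Aged untreated replicates read 414, 319 and 415 TPM, and treated replicates 507, 542 and 454 TPM. The 3 groups did not overlap: every aged untreated library lay above every young one, and every treated library above every aged untreated one. The means were 263 ± 41.7 TPM for young, 382 ± 54.8 TPM for aged untreated and 501 ± 44.7 TPM for treated livers. Only the outer step passed the test, treated against young, by 0.94 ± 0.14 on the log2 scale (limma adjusted p = 0.00539), and it was called under all 18 alternatives. On the log2 scale the step with age was 0.54 ± 0.14 (limma adjusted p = 0.101) and the step with the drug 0.40 ± 0.14 (limma adjusted p = 0.178). Neither neighbour in this order therefore differed at the threshold, although with array weights the age step was called (adjusted p = 0.0418).

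Glul (chr1:153899929-153909723) encodes glutamine synthetase, which joins ammonia to glutamate and in liver marks the innermost rows of pericentral hepatocytes. It read 187, 195 and 183 TPM in young replicates 1, 2 and 3. The aged untreated replicates read 238, 221 and 245 TPM, and the treated ones 174, 192 and 173 TPM. The aged untreated libraries lay above all others, and the young and treated libraries overlapped. The spread within a group was small, with means of 189 ± 6.27, 235 ± 12.1 and 180 ± 10.5 TPM. The log2 fold change was 0.31 ± 0.09 with age (limma adjusted p = 0.118) and -0.39 ± 0.09 with the drug (limma adjusted p = 0.0555). The drug difference was called with genes of 5 TPM or more (adjusted p = 0.0495), with quantile normalization (0.0421) and with array weights (0.0313), and over all 18 alternatives its adjusted p lay between 0.0313 and 0.17. Both differences use the aged untreated libraries, so they share those values. Treated and young livers differed by -0.071 on the log2 scale, with an unadjusted 95% interval from -0.26 to 0.12 (limma adjusted p = 0.659). With median-of-ratios scaling that sign was reversed (0.056).

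Rgn (chrX:20549766-20562089) encodes regucalcin, a calcium-binding gluconolactonase of hepatocytes that is also named senescence marker protein. It was the most abundant of the 9 genes in young livers, at 578, 663 and 594 TPM in replicates 1, 2 and 3. The aged untreated replicates read 452, 551 and 616 TPM and the treated ones 520, 518 and 621 TPM. All 3 groups overlapped. The log2 fold change with age was -0.19, with an unadjusted 95% interval from -0.46 to 0.08 (limma adjusted p = 0.509), and with the drug 0.043, from -0.23 to 0.32 (limma adjusted p = 0.887). In treated livers Oat and Rgn had similar levels (501 ± 44.7 and 553 ± 59.0 TPM), whereas in young livers Rgn stood at 612 ± 45.1 TPM and Oat at 263 ± 41.7 TPM.

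Tbx3 (chr5:119670534-119684724) encodes a T-box transcription factor that beta-catenin switches on in hepatocytes. It read 2.63, 3.63 and 6.53 TPM in young replicates 1, 2 and 3. The aged untreated replicates read 6.53, 8.83 and 5.46 TPM and the treated ones 5.39, 6.38 and 5.08 TPM. Young replicate 3 lay within the range of the old libraries and the other two young libraries below it. The log2 fold change with age was 0.70 ± 0.27 (limma adjusted p = 0.259), and it ranged from 0.44 to 1.02 with any 1 of the 9 libraries left out. The drug difference was -0.26 ± 0.27 (limma adjusted p = 0.646).

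**Figure D2:**
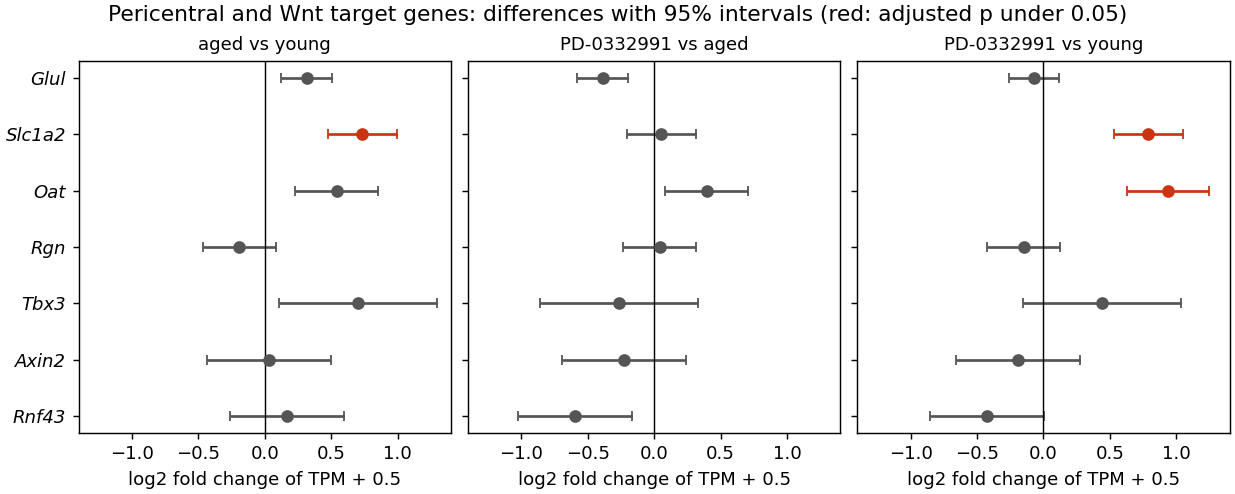
Log2 fold change of TPM + 0.5 for the 7 tested genes in the 3 comparisons, with unadjusted 95% intervals from limma; red marks an adjusted p under 0.05. Slc1a2 is red in aged against young (0.74) and treated against young (0.79), Oat is red in treated against young (0.94), and none is red in treated against aged.

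The feedback genes of the pathway were low. Axin2 (chr11:108917828-108950783), the scaffold of the beta-catenin destruction complex and a widely used readout of the pathway, read 1.08, 1.30 and 1.35 TPM in young replicates 1, 2 and 3. The aged untreated replicates read 1.45, 1.79 and 0.772 TPM, and the treated ones 0.956, 0.994 and 1.13 TPM. Aged replicate 3 was the lowest of all 9 libraries and aged replicate 2 the highest. The log2 fold change of Axin2 was 0.034 with age (unadjusted 95% interval -0.43 to 0.50, limma adjusted p = 0.962) and -0.22 with the drug (-0.69 to 0.24, limma adjusted p = 0.616). The age value was -0.15 without aged replicate 2, -0.029 without aged replicate 1, -0.033 without young replicate 1 and 0.28 without aged replicate 3.

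Rnf43 (chr11:87663087-87735539) encodes a ubiquitin ligase of the cell membrane that takes Frizzled receptors out of action. Young replicates 1, 2 and 3 read 2.68, 3.10 and 2.85 TPM. The aged untreated replicates read 2.504, 3.67 and 3.87 TPM and the treated ones 1.54, 2.72 and 1.93 TPM. Treated replicate 2 lay within the ranges of both untreated groups, and the other two treated libraries lay below all untreated ones. The log2 fold change with the drug was -0.59 ± 0.20 (limma adjusted p = 0.15), and against young livers -0.42 ± 0.20 (limma adjusted p = 0.208). Znrf3 (chr11:5276329-5444847), its close relative with the same role, read 1.15, 0.918 and 0.904 TPM in the young replicates. It read 0.495, 0.966 and 0.806 TPM in the aged untreated replicates and 0.787, 0.545 and 0.914 TPM in the treated ones. The 3 groups of Znrf3 overlapped. In a fit with no filter on low genes its log2 fold change was -0.26 with age (limma adjusted p = 0.605) and -0.000997 with the drug, with an unadjusted 95% interval from -0.41 to 0.41.

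Lgr5 (chr10:115450314-115587780) encodes a receptor for R-spondins and marks hepatocytes next to the central vein. It read 0.723, 0.752 and 0.638 TPM in young and 0.537, 0.544 and 0.796 TPM in aged untreated replicates 1, 2 and 3. In treated replicates 1, 2 and 3 it read 0.340, 0.443 and 0.300 TPM. All treated libraries lay below all 6 untreated ones, and the untreated groups overlapped. The treated mean of 0.361 ± 0.0736 TPM was 0.577 times the aged untreated mean of 0.626 ± 0.148 TPM. An exact two-sided permutation test gave p = 0.1 against aged untreated and p = 0.1 against young libraries, the smallest p that 3 against 3 libraries allow (adjusted p = 0.3 over the 6 exact tests of Lgr5 and Znrf3). In the fit with no filter its log2 fold change was -0.38 with the drug (limma adjusted p = 0.255) and -0.49 against young livers (limma adjusted p = 0.0986). No reading of Lgr5 reached 1 TPM, and the number of reads behind these values is unknown.

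The counts for the 7 tested members are set beside those of all genes. With age 1 of 7 was called, Slc1a2, where 1.10% of all 10161 genes were called, and 4 of 7 had an unadjusted p under 0.05, as did 1523 of all 10161 genes. With the drug limma called 0 of 7, where 1.45% of all genes were called; 3 of 7 (Glul, Oat and Rnf43) had an unadjusted p under 0.05, as did 1854 of all 10161 genes, and no other tool was run. For treated against young livers 2 of 7 were called, Slc1a2 and Oat, where 6.88% of all genes were called. The libraries of the groups did not overlap for 3 of 7 members with age (Glul, Slc1a2 and Oat, all higher), where 18.4% of all genes did not overlap. The same held for 2 of 7 with the drug (Glul lower, Oat higher) against 22.4% of all genes, and for 2 of 7 in treated against young livers against 33.9%, which are shares close to the background. As a median on the log2 scale, the 7 members differed by 0.31 with age (-0.012 over all genes tested), by -0.22 with the drug (-0.090) and by -0.071 against young livers (-0.097). Median-of-ratios scaling raised the median of all genes in treated against young livers by 0.12, and with it the members' median became 0.056.

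With the drug Glul lay lower and Oat higher, although neither difference passed the test. The ratio of Oat to Glul within a library does not depend on how the library is scaled; this ratio was picked after the values had been seen. Young replicates 1, 2 and 3 gave 1.15, 1.46 and 1.58, aged untreated ones 1.74, 1.44 and 1.69, and treated ones 2.92, 2.83 and 2.61. Every treated library lay above every untreated one, and the 2 untreated groups overlapped. The ratio of Slc1a2 to Glul did not overlap between any of the 3 groups, at 0.0749 ± 0.00309 for young, 0.103 ± 0.0215 for aged untreated and 0.138 ± 0.000913 for treated livers. The ratio of Oat to Slc1a2 overlapped in all 3 comparisons. An exact two-sided permutation test gave p = 0.1 for each of these separations (adjusted p = 0.18 over 9 tests), the smallest p the design allows. For Oat to Glul with the drug this outcome was fixed in advance. Oat lay higher and Glul lower in all treated than in all aged untreated libraries, so their ratio had to separate these groups. That separation restates the values of the 2 genes and is no separate observation.

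**Figure D3:**
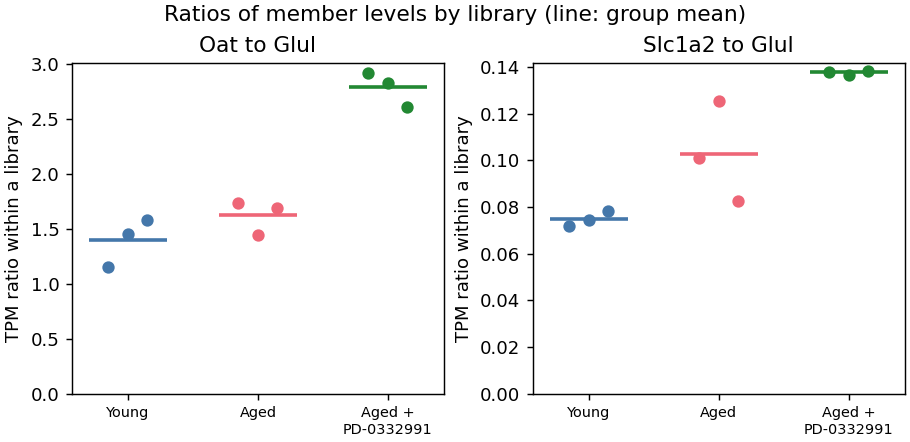
Ratio of TPM of Oat to Glul (left) and of Slc1a2 to Glul (right) in each library, on axes from 0; points are libraries and lines are group means. The Oat to Glul ratio is 2.61 to 2.92 in the treated libraries and 1.15 to 1.74 in the untreated ones.

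The upstream parts of the pathway are given by list, to be read beside the 1.10%, 1.45% and 6.88% of all genes called with age, with the drug and in treated against young livers. Of 25 ligand genes (Wnts, R-spondins and the 2 genes for Wnt release, Porcn and Wls) 5 were tested and none was called in any comparison. Wnt2, a central vein ligand, read 0.950 to 1.29 TPM in young, 1.28 to 1.77 TPM in aged untreated and 1.03 to 1.49 TPM in treated libraries. Rspo3, the R-spondin of the liver, read 1.02 to 1.78, 1.26 to 2.47 and 0.879 to 1.67 TPM, and both overlapped between all groups. Wnt9b, the other central vein ligand, lay between 0.142 and 0.490 TPM and therefore had no test. The highest ligand genes were Wnt5b (2.21 to 4.37 TPM over all libraries) and Porcn (1.25 to 3.39 TPM).

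Of 17 receptor genes 10 were tested, none was called with age or with the drug, and Fzd4, a Frizzled receptor, was lower in treated than in young livers (log2 fold change -0.999 ± 0.25, limma adjusted p = 0.0374). Fzd4 read 1.38 to 2.69 TPM in young and 0.435 to 1.12 TPM in treated libraries. The young libraries, where it is higher, were enough for it to pass the filter, and with no filter it was not called. Its call was also lost with median-of-ratios scaling (adjusted p = 0.0615), quantile normalization and the replicate block. The same held without young replicate 1 or 3 or any 1 treated replicate (adjusted p up to 0.143 over the alternatives). It held under 8 of 17 alternatives. The most abundant receptor genes were Ryk (9.21 to 11.1 TPM) and Lrp5, the Wnt co-receptor (6.28 to 9.82 TPM). Lgr4, a relative of Lgr5 that binds the same R-spondins, was higher than Lgr5 in TPM in every library, at 6.69 to 8.98 TPM, and its log2 fold change with the drug was 0.09 ± 0.14 (limma adjusted p = 0.777). The difference between the drug effects on Lgr4 and Lgr5 was not tested.

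Ctnnb1, the beta-catenin gene, read 43.4 to 52.7 TPM over all libraries, with a log2 fold change of -0.14 with age (limma adjusted p = 0.492) and 0.0065 with the drug (limma adjusted p = 0.979). Of 18 genes of beta-catenin and its destruction complex 17 were tested, none was called with age or with the drug, and only Btrc, a ubiquitin ligase subunit that recognises phosphorylated beta-catenin, was lower in treated than in young livers (log2 fold change -0.62 ± 0.16, limma adjusted p = 0.0422). That call was lost with median-of-ratios scaling (adjusted p = 0.072), no filter, quantile normalization and the replicate block. It was also lost without aged replicate 1 or any 1 young or treated replicate (up to 0.15), and held under 6 of 17 alternatives. Gsk3a (20.4 to 24.2 TPM), a kinase of the complex, and Apc (0.926 to 1.73 TPM), its scaffold, overlapped between the groups.

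Of 18 TCF/LEF factors and nuclear partners 14 were tested, none was called with age or with the drug, and the co-repressor Tle1 was lower in treated than in young livers (log2 fold change -0.48 ± 0.12, limma adjusted p = 0.04). That call was lost with median-of-ratios scaling (0.103), no filter, quantile normalization and the replicate block. It was also lost without any 1 young or treated replicate (up to 0.152), and held under 8 of 18 alternatives. Tcf7l2, the main TCF factor of liver, read 2.33 to 2.77 TPM in young, 1.67 to 2.68 in aged untreated and 1.39 to 2.26 TPM in treated libraries (treated against young, limma adjusted p = 0.289). Ctbp1, another co-repressor, read 14.3 to 17.96 TPM over all libraries. Hnf4a, a hepatocyte factor that opposes beta-catenin at periportal genes, read 94.4 to 117 TPM in young, 96.4 to 189 in aged untreated and 152 to 165 TPM in treated libraries (treated against young, log2 fold change 0.56 ± 0.22, limma adjusted p = 0.153).

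Of 18 listed inhibitor genes 3 were tested and none was called. Notum, a beta-catenin target whose product inactivates Wnt ligands, read 15.2 to 16.6 TPM in young, 13.0 to 22.0 in aged untreated and 10.1 to 13.6 TPM in treated libraries (with the drug, log2 fold change -0.52 ± 0.17, limma adjusted p = 0.15). Kremen1, a receptor of Wnt antagonists, had -0.29 ± 0.15 with the drug (limma adjusted p = 0.338). Of 15 other Wnt target genes found, 11 were tested. Sox9, a transcription factor also of bile duct cells, rose with age from 0.577 ± 0.175 to 1.70 ± 0.397 TPM (limma adjusted p = 0.0328). No young library reached 1 TPM of Sox9, so it entered the test through the old groups, where it is higher, and with no filter it was not called. Its call held under 7 of 17 alternatives and was lost without any 1 library other than aged replicate 3 or treated replicate 2 (up to 0.142). Ahr, the receptor for dioxin-like compounds, rose in treated against young livers (log2 fold change 0.75 ± 0.16, limma adjusted p = 0.0182), a call lost without young replicate 1 or 2 or treated replicate 2 or 3 (up to 0.0837). Among the other targets the highest were Lect2, a secreted hepatocyte protein (89.6 to 149.7 TPM), and Nr1i3, the xenobiotic receptor CAR (27.9 to 59.5 TPM), neither of them called.

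**Figure D4:**
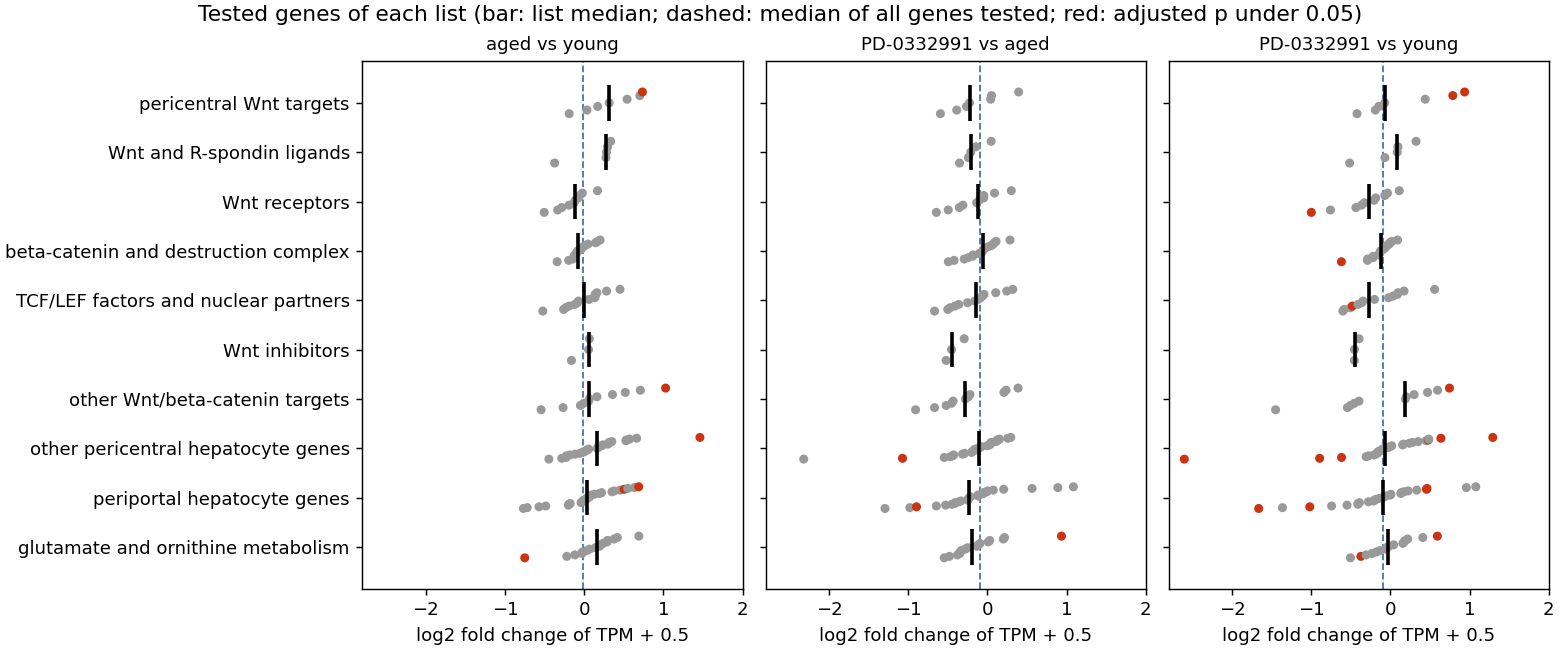
Log2 fold change of TPM + 0.5 of every tested gene in 10 lists, in the 3 comparisons; points are genes, red where the adjusted p is under 0.05, bars are list medians and the dashed line is the median of all genes tested. The pericentral Wnt targets have medians of 0.31, -0.22 and -0.071, and most genes of the ligand, receptor and destruction complex lists are grey.

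Other pericentral genes were compared with periportal ones. Of 27 tested pericentral genes 1 rose with age, Cyp2c37 (from 107 to 144 TPM in young to 309 to 382 TPM in aged untreated libraries, limma adjusted p = 0.00407), and none fell. With the drug 1 fell, the vasopressin receptor gene Avpr1a (10.1 to 14.8 TPM in aged untreated and 4.12 to 6.38 TPM in treated libraries, limma adjusted p = 0.0198), and none rose. That call was lost without aged replicate 2 or treated replicate 2 or 3 (up to 0.0716). It was also lost with no filter, the replicate block and the 6 libraries of the comparison alone. In treated against young livers 3 were higher and 3 lower. Cyp2c37, Por, the electron donor of the P450 enzymes, and the phosphatase gene Lhpp were higher, and Cyp7a1, the rate-limiting enzyme of bile acid synthesis, Avpr1a and Ces1c were lower. Of these 6 calls only that of Cyp2c37 held without each library in turn. Leaving out treated replicate 2 lost the others (adjusted p over all alternatives up to 0.0693 for Cyp7a1, 0.0531 for Por, 0.0662 for Avpr1a, 0.0785 for Ces1c and 0.162 for Lhpp); so did treated replicate 3 for Cyp7a1, Por and Lhpp, young replicate 1 for Avpr1a, Ces1c and Lhpp, young replicate 2 for Avpr1a and Lhpp, and young replicate 3, treated replicate 1 and aged replicate 1 for Lhpp. Cyp2c37 belongs to a family of near-identical genes among which reads can be split, so its level is uncertain. Cyp2e1, a beta-catenin target and pericentral enzyme, read 2062 to 2561 TPM over all libraries with a log2 fold change of -0.11 with age (limma adjusted p = 0.62) and 0.045 with the drug (limma adjusted p = 0.844). Gstm1 (1373 to 2479 TPM), a glutathione transferase, was not called.

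Of 27 tested periportal genes 2 rose with age, Pigr, the transporter of polymeric immunoglobulin (limma adjusted p = 0.0085), and the apolipoprotein gene Apoc2 (0.0482), and none fell. With the drug 1 fell, Cdh1, the gene of E-cadherin, from 5.45 to 5.85 TPM in aged untreated to 2.12 to 3.90 TPM in treated libraries (limma adjusted p = 0.0313), and none rose. Against young livers Pigr and Apoc2 were higher in treated livers, and Cdh1 and Etnppl lower. Of the 7 calls in these 3 comparisons, that of Cdh1 against young livers held without each library in turn. That of Pigr with age was lost without young replicate 1 (0.0514) and that of Cdh1 with the drug without young replicate 1 or 2, aged replicate 2 or treated replicate 2 or 3 (up to 0.122). Against young livers Pigr was lost without young replicate 1 or 3 or treated replicate 2 or 3 (up to 0.0844), Apoc2 without young replicate 1 or 3 or any 1 treated replicate (up to 0.11), and Etnppl without any 1 young or treated replicate (up to 0.118). The Apoc2 call with age was lost without any 1 library other than aged replicate 3 (up to 0.191). Median-of-ratios scaling (0.056), no filter, quantile normalization, the replicate block and the 6 libraries alone lost it too, and it held under 5 of 18 alternatives. Apart from median-of-ratios scaling, the same settings lost the Cdh1 call with the drug, which held under 9 of 18. Against young livers, quantile normalization also lost Apoc2, and no filter lost Etnppl. The median of the periportal genes was 0.041 with age and -0.23 with the drug on the log2 scale, beside 0.16 and -0.11 for the other pericentral genes. With median-of-ratios scaling the drug medians were -0.12 and -0.0031. The highest periportal genes were Trf, which encodes transferrin (4851 to 6423 TPM), and Ass1 of the urea cycle (557 to 1016 TPM), neither of them called.

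Genes of glutamate and ornithine metabolism, the reactions around Glul, Oat and Slc1a2, had 16 tested members. Slc38a2, which carries glutamine and other small neutral amino acids into cells, fell with age from 20.0 to 25.5 TPM in young to 11.9 to 17.3 TPM in aged untreated libraries (log2 fold change -0.75 ± 0.15, limma adjusted p = 0.0399). It rose with the drug to 25.2 to 28.1 TPM (0.94 ± 0.15, limma adjusted p = 0.0161). As for Glul, both differences use the aged untreated libraries and share those values. The age call was lost without any 1 library other than aged replicate 3 (up to 0.170), and the drug call without aged replicate 2 or treated replicate 2 or 3 (up to 0.0739). Both were also lost with no filter and with the 6 libraries of the comparison alone. Against young livers Glud1, glutamate dehydrogenase, was lower in treated livers (log2 fold change -0.37 ± 0.09, limma adjusted p = 0.0317; 0.126 with median-of-ratios scaling), and the transaminase gene Got1 was higher (0.59 ± 0.15, 0.0394). Both calls were lost without any 1 young or treated replicate (up to 0.126 and 0.145). Slc38a3, the glutamine transporter of hepatocytes, read 344 to 472 TPM and was not called.

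For each tested member the 2 genes of most similar pattern were taken by Pearson's r on log2(TPM + 0.5) over the 9 libraries, which differ by group, so the values are a description. For Glul these were Ppp1r14a (r = 0.957) and Rogdi (r = 0.942). Ppp1r14a, an inhibitor of myosin phosphatase, read 5.60 to 6.03 TPM in young, 10.7 to 13.7 in aged untreated and 5.25 to 7.02 TPM in treated libraries. It rose with age (limma adjusted p = 0.00798) and fell with the drug (limma adjusted p = 0.0156), while Rogdi rose with age (0.0477) and had a drug difference of -0.48 ± 0.11 (0.0537). Within each gene both differences share the values of the aged untreated libraries. Ppp1r14a and Rogdi were chosen for their match to Glul over these same libraries. Their rise with age and lower level with the drug follow largely from that choice and are no evidence on Glul. For Slc1a2 they were C4a (r = 0.98), a complement gene whose reads can be shared with its near-identical copy C4b, and Serpine2 (r = 0.978), an inhibitor of serine proteases. For Oat they were Nfil3 (r = 0.96), a repressor tied to the circadian clock, and Nnmt (r = 0.952), which methylates nicotinamide. Nfil3 read 8.45 to 9.96 TPM in young, 14.8 to 22.4 TPM in aged untreated and 25.4 to 29.9 TPM in treated libraries, and like Oat it did not overlap between the groups. Because Nfil3 was chosen for its match to Oat over these same libraries, this likeness follows largely from that choice and is no separate observation. The nearest to Rgn were Pon1 (r = 0.959) and Ssbp1 (r = 0.949), to Tbx3 Naa15 (r = 0.963) and Nol8 (r = 0.942), to Rnf43 Hsd17b6 (r = 0.94) and Nox4 (r = 0.917), and to Axin2 Camsap1 (r = 0.96) and Cbfb (r = 0.957).

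Markers of other liver cells were read beside these results. The 4 markers of central vein endothelium summed to 2.68 to 4.05 TPM in young, 3.79 to 4.75 TPM in aged untreated and 3.34 to 3.56 TPM in treated libraries; 2 of 4 were tested and none was called. Of 6 endothelial markers only Lyve1 was called with age, where it was lower (limma adjusted p = 0.0449). That call held under 7 of 17 alternatives (adjusted p up to 0.170) and was lost with a pseudocount of 0.1 and with no filter. The sums of the endothelial markers were 53.6 to 56.8, 46.9 to 60.4 and 46.3 to 54.3 TPM, led by Clec4g and followed by Pecam1. The 4 Kupffer cell markers found summed to 54.1 to 88.9 TPM in young, 49.6 to 74.6 in aged untreated and 41.0 to 48.7 TPM in treated libraries, with Clec4f and Vsig4 lower in treated than in young livers and Cd5l among the highest. The 3 neutrophil markers found, S100a8, S100a9 and Retnlg, were higher in treated than in young livers and summed to 2.61 to 3.55, 8.09 to 24.9 and 23.8 to 33.4 TPM. Of 6 stellate cell markers Col3a1 was lower with age and in treated against young livers, and the sums, led by Dcn, were 55.3 to 65.7, 44.3 to 62.9 and 41.6 to 58.4 TPM. Of 5 bile duct markers 2 were tested, Sox9 and Spp1, with sums of 17.1 to 20.9, 10.3 to 22.6 and 8.94 to 14.2 TPM. The hepatocyte marker Ttr was lower in treated than in young livers (limma adjusted p = 0.0357; 0.11 with median-of-ratios scaling). Of the marker calls, those of Col3a1 and Retnlg against young livers held without each library in turn, and those of S100a8 and S100a9 were lost only without treated replicate 2 (adjusted p = 0.0519 and 0.0513). The part of these cell types in the levels of Slc1a2, Oat and Glul was not tested.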

How the data were processed

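Mouse liver RNA was sequenced as 9 paired-end TruSeq libraries, per the labels' protocols, with group and replicate number taken from the sample titles. For each library the authors deposited TPM values under gene symbols, in 23444 rows. The submitters' processing notes name kallisto and build mm10. Not given in the sources used here are its version, the annotation, any use of strand and how transcripts were summed to genes. The 4 rows whose symbol occurs more than once were left out.

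Values were tested as log2(TPM + 0.5) with limma 3.58.1 in R 4.3.3 (intensity trend, robust variance, group as the only term, all 9 libraries, two-sided) over 10161 genes with 1 TPM or more in at least 3 libraries. Benjamini-Hochberg adjusted p under 0.05 was the threshold. The steps were tested on simulated data. Genes were matched by symbol, and 5 list symbols (Tiki1, Troy, Tf, Adgre1 and Ly6g) were not matched. Some genes stand in more than 1 list, such as Sox9, Wnt2 and Rspo3. The genes named are the 9 members, the called genes (up to 4 per list and comparison) and the 2 highest genes of each list, 9 pathway genes named in every case, and the 2 genes of most similar pattern to each tested member, predicted genes left out. The 9 members, the lists and the motifs were chosen with earlier results of these data known. Alternatives were other pseudocounts, filters and scalings, array weights, a replicate block, the 6 libraries of a comparison alone, and leaving out each library. Coordinates and promoters are from RefSeq GRCm38.p6, and gene spans and transcripts also from GENCODE M21. 1 list of cell type markers is not reported here.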

Additional observations from a re-analysis of the deposited data

How the results depend on the processing

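The call of Oat and Slc1a2 in treated against young livers held under all 18 alternatives. The number of members called with age was 2 with array weights and 0 with the 6 libraries of the comparison alone, and 0 to 1 with any 1 library left out; with the drug it was 1 with genes of 5 TPM or more, with quantile normalization and with array weights, in each case Glul. Over all genes, 112 were called with age, 147 with the drug and 699 in treated against young livers. With array weights these counts were 490, 271 and 1354, with the 6 libraries alone 49, 25 and 1282, and with no filter 62 with age and 29 with the drug. With any 1 library left out they were 16 (without young replicate 1) to 696 (without aged replicate 3), 7 (without treated replicate 2) to 392 (without aged replicate 3) and 153 (without treated replicate 2) to 1263 (without aged replicate 3). The split of calls with the drug was 62 higher and 85 lower, 119 and 55 with median-of-ratios scaling, 88 and 56 with quantile normalization and 31 and 29 with the replicate block. In treated against young livers it was 263 higher and 436 lower, 386 and 228 with median-of-ratios scaling and 308 and 310 with quantile normalization. Signs turned for Glul in treated against young livers with median-of-ratios scaling (0.056) and for Slc1a2 with the drug with array weights (-0.011). With 1 library left out, the log2 fold change of Slc1a2 with the drug ranged from -0.064 to 0.16, that of Rgn with the drug from -0.080 to 0.14, and that of Axin2 with age from -0.15 to 0.28. The causes were not tested. With the replicate number as a block the counts over all genes were 91, 60 and 492, and the members called were the same in number. Same-numbered libraries of different groups correlated with r from -0.22 to 0.17 in their deviations from the group means. Not every library correlated best with its own number. Deviations from a mean of 3 libraries depend on each other, so this check cannot settle whether the numbers pair the libraries. Depth is unknown, so the precision of the low genes Lgr5, Znrf3 and Axin2 could not be given from counts.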

Other observations

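Axin2 and Hnf4a were both uneven within the aged untreated group. Aged replicate 3 read 0.772 TPM of Axin2 against 1.45 and 1.79 TPM in replicates 1 and 2, and 96.4 TPM of Hnf4a against 189 and 181 TPM. In aged replicate 3 Camsap1 read 0.633 TPM against 1.44 and 1.76 TPM, and Cbfb 2.59 TPM against 6.57 and 7.89 TPM. Both were chosen for the closest pattern to Axin2 over these same 9 libraries. Their low values there follow from that choice and are no separate observation. Glul, at 245 TPM, was highest in aged replicate 3. These genes were picked after their values had been seen, and no test was made within a group.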
